A study of Drosophila melanogaster with 12 samples.

Results

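The comparison set 4 arrays from 16 and 20 h after lights-on against 4 arrays from 8 and 24 h, in heads of adult Drosophila melanogaster. The 8 arrays were chosen by collection time from a series of 12, and the 4 arrays from 4 and 12 h stayed out of the fit. The choice also noted good RNA quality, a measured property, for all 8. All flies carried the yellow and white mutations (y w), which change body colour and remove the eye pigments, and no other allele or agent is named. Flies had been kept for 3 days in 12 h of light and 12 h of darkness (LD). They were then collected every 4 h through 1 more LD day, with times written ZT, and through the following day in constant darkness (DD), with times written CT. The 16/20 h group therefore held ZT16, ZT20, CT16 and CT20, the dark phase of the LD day and the subjective night of the DD day. The 8/24 h group held ZT8, CT8, ZT24 and CT24, which are the late light phase and the hour of lights-on, or their subjective counterparts. Frozen flies were broken and about 100 to 200 heads per sample were collected on sieves, so each value comes from a pool of animals of unstated age and sex. Each time point was hybridised once, and the arrays of a group are different clock times. A p-value therefore measures the scatter between single arrays within a day, and clock time cannot be told apart from the collection session.

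Circadian time in fly neurons and photoreceptors is kept by a feedback loop in which Clock and Cycle switch on period and timeless, whose protein products later repress them. Transcripts of timeless and period peak in the early night, and that of cryptochrome, the blue-light photoreceptor, peaks in the day. A fraction collected on a sieve can also carry pieces of other body parts. Digestive proteases are made in the midgut, seminal fluid proteins in the male accessory glands and ejaculatory bulb, eggshell proteins in the ovary, and the flight muscle isoforms of actin and troponin in the thorax. Genes of those 4 classes were therefore taken as separate lists and kept apart from genes used in the head.

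Markers of head cell types were measured first. Over the 8 arrays Arr1 and Arr2, the arrestins of photoreceptors, lay at log2 11.09 to 11.69 and 11.99 to 12.31, and the light-activated channel gene trp at 9.33 to 10.06. The glial regulator repo lay at 4.84 to 5.35 and the histamine-synthesis gene Hdc at 5.53 to 6.11, near or above the array medians of 4.94 to 4.95. The neuronal marker elav read 3.12 to 3.49, below those medians. Of 26 phototransduction genes, 21 (80.8%) lay above the array median on all 8 arrays, against 48.4% of all genes. That share was 92.9% for head fat body genes, 62.2% for neuronal, 53.8% for glial and 26.4% for olfactory genes. It was 76.9% for muscle, 66.7% for digestive, 60.7% for ovary and 29.8% for male reproductive tract genes, so it did not set the head lists apart from the body lists. The signal of control transcripts at the 3' end minus the 5' end, a measure of RNA integrity, was 1.69 to 2.20 on the 8 arrays and 1.86 to 3.46 on the 4 arrays left out. Pairs of these 8 arrays correlated at 0.979 to 0.995.

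Among probe sets assigned to 1 gene, the largest differences that passed the test were falls at 16/20 h of digestive protease and male reproductive tract transcripts, by up to 9.85-fold, and of the oenocyte gene Cyp4g1, by 7.44-fold. The genes that rose were fewer, belonged to none of the body lists, and rose by at most 2.09-fold. Probe sets assigned to several genes or to none, which are not named here, reached log2 differences of -5.79 and 1.43. Of 13966 probe sets, 92 (0.659%) passed an adjusted p of 0.05 in the limma fit with day as a covariate, 29 higher (0.208%) and 63 lower (0.451%). With 1 probe set per gene, 78 of 10845 genes passed (0.719%), 24 higher (0.221%) and 54 lower (0.498%). At an unadjusted p under 0.05 the numbers were 850 genes higher (7.84%) and 712 lower (6.57%). The 4 arrays of one group did not overlap the 4 of the other in 86 of the 92 called probe sets. All 92 had the same sign on both days, against 56.4% of all probe sets. The 92 were picked by the fit to these same 8 arrays, so both counts follow largely from that choice. Over all genes the groups did not overlap in 3.98% with 16/20 h higher and in 4.45% with 16/20 h lower. The night level was lower in 58.7% of all genes and higher in 41.3%, with a median difference of -0.02. The size of the called set depended on single arrays: it was 513 probe sets without CT8, of which 386 were higher, and 131 without ZT24. It was 27 without CT16, 28 without ZT16, 31 without ZT8, 36 without CT20, 40 without ZT20 and 54 without CT24. It was also 29 on the LD day alone and 18 on the DD day alone.

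**Figure D1:**
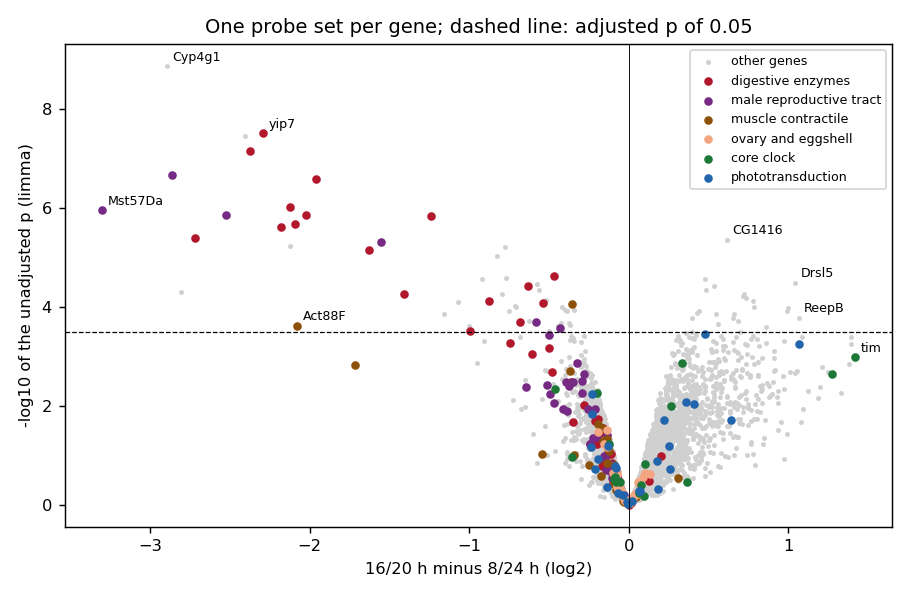
Each point is 1 gene, placed by its 16/20 h minus 8/24 h difference in log2 (x axis) and the negative log10 of its unadjusted limma p (y axis), with 6 gene lists in colour. Above the dashed line, at an adjusted p of 0.05, all 25 genes of the body lists lie on the left, and Cyp4g1 has the smallest p of all.

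Digestive enzyme transcripts were lower at 16/20 h, and several fell more than 4-fold. Of 54 measured genes of the list, 17 (31.5%) passed the test as lower and none as higher, against 0.498% of all genes lower. Their median difference was -0.21 against -0.02 for all genes, 50 of the 54 lay below 0 (58.7% of all genes did), and 26 had groups that did not overlap with 16/20 h lower, against 4.45% of all genes. In a bulk sample, fewer cells of a type and less RNA per cell cannot be told apart.

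The protease gene yip7 had the smallest p of the list. Its log2 level was 8.72 at ZT8, 8.74 at ZT24, 9.27 at CT8 and 9.67 at CT24, and 6.77 at ZT16, 6.78 at ZT20, 6.86 at CT16 and 6.83 at CT20. The 4 night arrays were almost equal and lay far below all 4 others. The means were 6.81 ± 0.04 and 9.10 ± 0.46 (SD, n = 4), a fall of 4.90-fold (log2 difference -2.29 ± 0.14 SE, adjusted p = 7.02e-05).

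The Jonah serine protease gene Jon65Aiv gave the same picture. It read 9.46 at ZT8, 9.63 at ZT24, 9.69 at CT8 and 10.32 at CT24, and 7.601, 7.26, 7.31 and 7.44 at ZT16, ZT20, CT16 and CT20. It fell by 5.19-fold (-2.38 ± 0.16, adjusted p = 0.000121), with no overlap. The trypsin gene betaTry stood at 9.04, 8.96, 9.09 and 10.05 at ZT8, ZT24, CT8 and CT24 and at 7.11, 7.17, 7.24 and 7.15 at ZT16, ZT20, CT16 and CT20. It fell by 4.35-fold (-2.12 ± 0.19, adjusted p = 0.00119). In both genes CT24 was the highest of the 4 reference arrays.

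The other 5 digestive genes of smallest p were the Jonah genes Jon65Aiii (-1.96), Jon25Biii (-2.02) and Jon99Fii (-2.09), the trypsin gene alphaTry (-2.18) and the aspartic protease gene Bace (-1.24), with adjusted p from 0.000369 to 0.002. The largest digestive fall, chosen after its values were seen, was that of Jon99Fi, by 6.57-fold (-2.72 ± 0.29, adjusted p = 0.00317). Its 16/20 h mean of 2.55 is near the low end of the scale, where signal over background was not measured. The list also holds digestive lysozymes, enzymes that break down bacterial cell walls. LysE (-0.87), LysD (-0.99) and LysB (-0.68), also chosen after their values were seen, fell with adjusted p from 0.0234 to 0.0484. The probe sets of these 3 lysozyme genes and of Jon99Fii are of a kind whose probes can match related genes, so their values are uncertain as to the gene. Other enzyme genes of the list, chosen after their values were seen, differed little. The maltase genes Mal-A4 and Mal-A8 differed by -0.01 and 0.03, the trypsin gene zetaTry by 0.01 and the lysosomal mannosidase gene LManII by 0.20.

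Male reproductive tract transcripts included the largest fall of any probe set assigned to 1 gene. Of 47 measured genes, 6 (12.8%) passed as lower and none as higher, against 0.498% of all genes lower. The median was -0.21, and 44 lay below 0, against 58.7% of all genes. In 18 the groups did not overlap with 16/20 h lower, against 4.45% of all genes. Mst57Da, which encodes an accessory gland protein, read 8.93 at ZT8, 8.54 at ZT24, 8.48 at CT8 and 10.11 at CT24. At ZT16, ZT20, CT16 and CT20 it read 5.62, 5.83, 5.77 and 5.64. The fall was 9.85-fold (-3.30 ± 0.30, adjusted p = 0.00129), and no night array came within 2 log2 units of a reference array.

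Ebp, which encodes an ejaculatory bulb protein of the mating plug, stood at 6.23 at ZT8 and at 7.22, 7.30 and 7.40 at ZT24, CT8 and CT24. It stood at 4.19, 4.30, 4.17 and 4.03 at ZT16, ZT20, CT16 and CT20. It fell by 7.27-fold (-2.86 ± 0.22, adjusted p = 0.000342), and ZT8 was the lowest reference array. A further ejaculatory bulb gene, EbpII, fell by 5.75-fold (-2.52 ± 0.23, adjusted p = 0.00135). The accessory gland genes Acp95EF (-1.55), Acp63F (-0.59) and Acp36DE (-0.43) also fell, with adjusted p of 0.00349, 0.0375 and 0.0432. Acp53C14b (-0.50) and Acp26Aa (-0.32) had adjusted p of 0.0534 and 0.0927. The means of Acp26Aa, 2.15 at 16/20 h and 2.47 at 8/24 h, were near the low end of the scale. The 3 genes of the list above 0 were the testis genes djl (0.01) and janB (0.02), and EbpIII (0.05). The 16/20 h means of djl and janB were 2.58 and 2.88, near the low end of the scale, where signal over background was not measured. Among the 44 genes below 0, Mst84Dd and Mst84Db, picked after their values were seen, differed by -0.52 and -0.41 (adjusted p = 0.14 and 0.211).

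Of 26 muscle genes, 2 (7.69%) passed as lower and none as higher, against 0.498% of all genes lower. The median was -0.13, and 24 lay below 0, against 58.7% of all genes. Act88F, the actin of the indirect flight muscles, read 4.55 at ZT8, 6.10 at ZT24, 7.30 at CT8 and 7.27 at CT24. It read 4.09, 3.82, 4.21 and 4.78 at ZT16, ZT20, CT16 and CT20. The groups overlapped, since CT20 exceeded ZT8, and the difference was -2.08 ± 0.36 (4.22-fold lower, adjusted p = 0.0416). The 24 h and CT8 arrays made most of that difference, and the adjusted p missed 0.05 in 6 of the 8 fits that left out 1 array, reaching 0.154. TpnC4, the flight muscle troponin C gene, fell by 0.36 (± 0.05, adjusted p = 0.0254), at levels of 2.38 to 3.05, and missed the threshold in 6 of those 8 fits as well.

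Flightin (fln), a myosin-binding protein of flight muscle, stood at 3.43 at ZT8, 4.13 at ZT24, 5.77 at CT8 and 6.06 at CT24, and at 3.06 to 3.22 on the 4 night arrays. Its difference of -1.71 had an adjusted p of 0.0949. The muscle protein gene Mp20 differed by -0.37 (adjusted p = 0.106) and the myosin alkali light chain gene Mlc1 by 0.31. None of 28 ovary and eggshell genes passed the test, against 0.719% of all genes. Their median was -0.04, and 18 lay below 0, against 58.7% of all genes. The vitelline membrane gene Vm34Ca differed by -0.19 (adjusted p = 0.324) and the germline gene orb by -0.14 (adjusted p = 0.309). A second probe set of orb differed by -0.05.

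**Figure D2:**
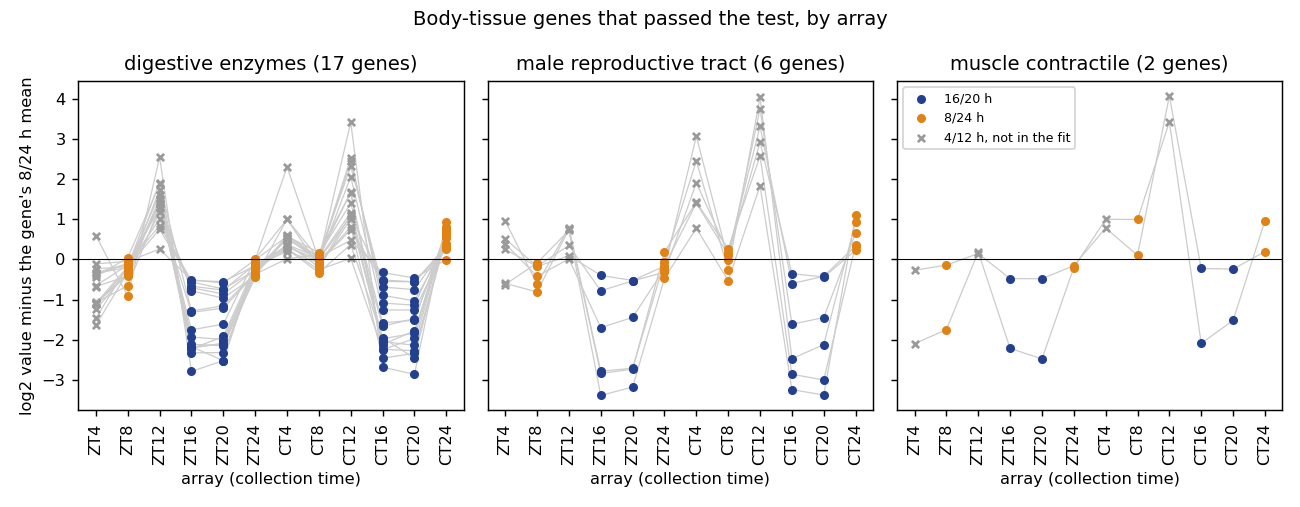
Log2 level of each called gene of the digestive, male and muscle lists on the 12 arrays, minus the gene's 8/24 h mean (y axis); a grey line joins the values of 1 gene. Dark blue points are 16/20 h, orange points 8/24 h, and grey crosses the 4 and 12 h arrays, which were not in the fit; the 17 digestive and 6 male genes are low at 16 and 20 h on both days.

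The mean of the digestive list, each gene centred on its mean over the 12 arrays, was -0.52 to -0.49 on the night arrays and -0.02 to 0.30 on the 8/24 h arrays. The male list was -0.47 to -0.37 against -0.10 to 0.18. The muscle list overlapped, at -0.34 to 0.20 against -0.29 to 0.48, and so did the ovary list, at -0.07 to 0.00 against -0.05 to 0.03. The mean digestive and male levels thus separated the groups with no overlap, while 17 of 54 digestive and 6 of 47 male genes passed on their own; their part in the other results was not tested. Among the 25 called genes of the body lists, CT24 was the highest reference array in 23 and CT8 in 2. All 25 stood above their 8/24 h mean at both ZT12 and CT12, which were not in the fit. The 3' minus 5' control signal was 1.86 at ZT12 and 3.46 at CT12.

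Outside the body lists, 29 of 10690 genes passed as lower, against 54 of all 10845 (0.498%). In either direction 0.496% of the genes outside the body lists passed, against 0.719% of all genes. The lists were drawn up by gene name, so a gene outside them may still come from other body parts, and this was not tested. Cyp4g1, the oenocyte cytochrome P450 that makes the hydrocarbons of the cuticle surface, had the smallest p of all genes. It read 7.88 at ZT8, 8.13 at ZT24, 8.48 at CT8 and 8.83 at CT24. It read 5.24 at ZT16, 4.95 at ZT20, 6.0 at CT16 and 5.54 at CT20, so every night array lay below every other array. The fall was 7.44-fold (-2.90 ± 0.12, adjusted p = 1.88e-05), and it passed in all 8 fits that left out 1 array. On the arrays not in the fit Cyp4g1 stood at 8.76 at ZT4, 9.27 at ZT12, 9.09 at CT4 and 10.78 at CT12.

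Several genes named here by their annotation numbers, whose function was not examined, fell by more than 4-fold. CG12374 read 7.24, 7.79, 8.16 and 8.07 at ZT8, ZT24, CT8 and CT24 and 5.51, 5.29, 5.51 and 5.34 at ZT16, ZT20, CT16 and CT20. It fell by 5.29-fold (-2.40 ± 0.15, adjusted p = 7.02e-05), without overlap. CG18628 fell by 4.37-fold (-2.13 ± 0.23, adjusted p = 0.00389). CG16826 stood at 7.98, 7.52, 7.74 and 8.96 at ZT8, ZT24, CT8 and CT24. It stood at 5.37, 6.33, 4.65 and 4.63 at ZT16, ZT20, CT16 and CT20, a fall of 6.99-fold (-2.81 ± 0.40, adjusted p = 0.0193) with ZT20 the highest night array.

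The remaining falls of smallest p were smaller. Sgp (-0.78), the antigen 5-related gene Ag5r (-0.83), CG18180 (-0.77) and CG16904 (-0.92) fell by 1.71-fold to 1.89-fold. CG31872 (-0.57), the acyl-CoA-binding protein gene Acbp5 (-0.57), CG12057 (-0.79) and CG8997 (-0.52) fell by 1.43-fold to 1.73-fold. Their adjusted p ran from 0.0039 to 0.0226. Sgp and Ag5r passed in all 8 fits without 1 array, and the other 6 in 3 to 6 of them. Of the 29 falls outside the lists, 17 stood at both ZT12 and CT12 above all 4 reference arrays, as did 17 of the 25 in the body lists. ZT12 lay above the 8/24 h mean in 22 of the 29 and CT12 in 23. The 6 with CT12 below it, picked out after their values were seen, were ebony (e), l(2)efl, Tab2, Nt5a, colt and CG9649. Anp, which encodes the male ejaculatory duct peptide andropin, is in no body list. It was chosen after its values were seen and fell by 0.72 (adjusted p = 0.0262).

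Those 6 genes include functions of the head and of metabolism. The small heat shock protein gene l(2)efl read 8.30, 8.33, 8.35 and 8.15 at ZT8, ZT24, CT8 and CT24 and 7.83, 7.995, 7.66 and 7.88 at ZT16, ZT20, CT16 and CT20. Its groups did not overlap, with a difference of -0.44 ± 0.08 (adjusted p = 0.0416). The mitochondrial carnitine carrier gene colt fell by 0.39 (± 0.06, adjusted p = 0.0282), while its second probe set differed by -0.12. Tab2, a component of immune signalling, fell by 0.43 (± 0.07, adjusted p = 0.0391). The 5'-nucleotidase gene Nt5a fell by 0.40 (± 0.06, adjusted p = 0.0282). Of the 8 fits that left out 1 array, l(2)efl, colt and Tab2 each passed in 1.

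The 24 rises at 16/20 h were in none of the body lists, and the median size of their difference was 0.67. CG1416 had the smallest p among them. It read 4.99 at ZT8, 4.84 at ZT24, 4.29 at CT8 and 4.15 at CT24, and 5.55 at ZT16, 5.58 at ZT20, 4.84 at CT16 and 4.75 at CT20. The groups overlapped across days, because both groups were lower in DD, but not within a day. The rise was 1.53-fold (0.61 ± 0.06, adjusted p = 0.00324), and it was the only named rise that passed in all 8 fits without 1 array.

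Srp54k, a subunit of the signal recognition particle that guides nascent proteins to the endoplasmic reticulum, read 4.15, 4.30, 4.01 and 3.92 at ZT8, ZT24, CT8 and CT24. It read 4.63, 4.67, 4.52 and 4.48 at ZT16, ZT20, CT16 and CT20, a rise of 0.48 (± 0.06, adjusted p = 0.013) without overlap. alphaSnap, which takes apart membrane fusion complexes after vesicle fusion, read 4.76, 4.81, 4.47 and 4.49 and then 5.25, 5.08, 5.06 and 5.07 in the same order. It rose by 0.48 (± 0.07, adjusted p = 0.0175), with ZT16 above the other night arrays. ReepB, a shaping protein of the endoplasmic reticulum and the largest rise of the 24, was chosen after its values were seen. It read 6.71, 7.499, 7.46 and 6.97 in the reference arrays and 8.12, 8.32, 8.41 and 8.04 at night, 2.09-fold higher (1.06 ± 0.18, adjusted p = 0.0329). ReepB passed in 2 of the 8 fits without 1 array, Srp54k in 5 and alphaSnap in 3.

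Also chosen after their values were seen were the called genes Alg11 (0.69 ± 0.12, adjusted p = 0.0375), a mannosyltransferase of N-glycan assembly, and the phosphomannomutase gene Pmm2 (0.55 ± 0.09, adjusted p = 0.0298). A list of endoplasmic reticulum entry and folding genes, drawn up after these values were seen, held 33 measured genes. Only Srp54k passed, against 0.221% of all genes higher, and the median was -0.02. Sec61beta, a subunit of the translocation channel, differed by -0.30 (adjusted p = 0.0761), the oligosaccharyltransferase subunit gene Ostgamma by 0.51 (adjusted p = 0.12) and the chaperone gene Cnx99A by 0.34 (adjusted p = 0.185).

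Drsl5, a member of the drosomycin family of antifungal peptides, read 6.64 at ZT8, 6.96 at ZT24, 6.47 at CT8 and 6.92 at CT24. It read 7.87, 8.25, 7.55 and 7.495 at ZT16, ZT20, CT16 and CT20. All night arrays were higher, and the rise was 2.06-fold (1.04 ± 0.14, adjusted p = 0.0146). BomBc2, which encodes a secreted Bomanin immune peptide and was chosen after its values were seen, rose by 1.57-fold (0.65 ± 0.11, adjusted p = 0.0329). Of 16 antimicrobial genes in the fixed list none passed, against 0.719% of all genes, with a median of 0.03. There the peptidoglycan-binding gene PGRP-SB1 differed by 0.58 (adjusted p = 0.0534), Drs, the drosomycin gene itself, by 0.64 (adjusted p = 0.116), Mtk by 0.93 (adjusted p = 0.167) and GNBP3 by 0.30.

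Cbp53E encodes a calbindin-type calcium-binding protein of neurons. It read 4.91, 4.89, 5.31 and 5.03 at ZT8, ZT24, CT8 and CT24 and 5.98, 5.47, 6.08 and 5.74 at ZT16, ZT20, CT16 and CT20. The rise was 1.72-fold (0.79 ± 0.12, adjusted p = 0.0262), with ZT20 closest to the reference arrays. Nmda1, which encodes a transmembrane protein of the Bax inhibitor family rather than a glutamate receptor subunit, read 6.19, 6.10, 6.11 and 5.87 and then 7.15, 7.03, 6.55 and 6.41 in the same order. It rose by 1.65-fold (0.72 ± 0.10, adjusted p = 0.0196), with the LD night arrays above the DD ones. The nicotinic acetylcholine receptor subunit gene nAChRbeta2, chosen after its values were seen, rose by 0.40 (± 0.07, adjusted p = 0.0498) and was almost flat at night, at 4.59 to 4.62.

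Cyp28d1, a cytochrome P450 of the detoxification class, read 7.03, 7.26, 7.82 and 7.08 at ZT8, ZT24, CT8 and CT24 and 8.39, 8.30, 8.34 and 8.14 at ZT16, ZT20, CT16 and CT20. It rose by 1.99-fold (0.99 ± 0.16, adjusted p = 0.0282), and CT8 was the reference array nearest to the night level. It passed in only 1 of the 8 fits without 1 array. The neprilysin-like peptidase gene Nepl21, whose probe set can match related genes, rose by 2.0-fold (1.0 ± 0.16, adjusted p = 0.0271), the mitochondrial ribosomal protein gene mRpL24 by 1.64-fold (0.71 ± 0.10, adjusted p = 0.0202) and CG3860 by 1.71-fold (0.78 ± 0.12, adjusted p = 0.0234). CG5493 (0.73) and CG7565 (0.53) had adjusted p of 0.0216 and 0.0157. Gnmt, the glycine N-methyltransferase gene, was chosen after its values were seen and rose by 0.66 (± 0.11, adjusted p = 0.0298). Like CG1416 it overlapped between days, at 6.83 and 6.92 against 7.74 and 7.604 in LD and at 5.24 and 5.40 against 5.61 and 6.06 in DD.

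**Figure D3:**
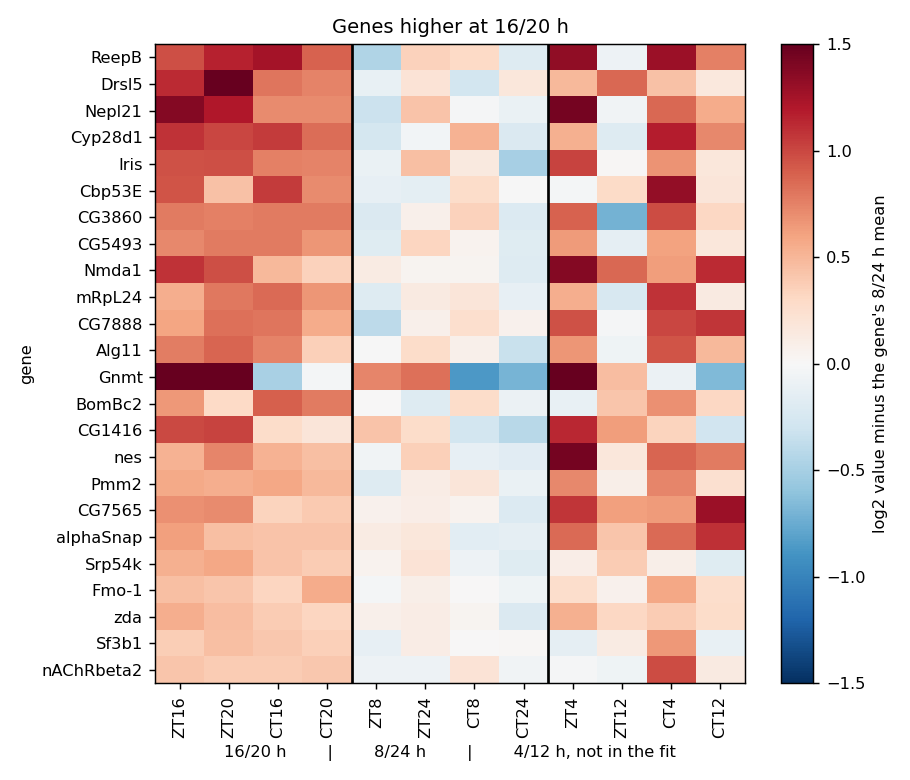
Log2 values of the 24 genes that rose, each minus its 8/24 h mean, in columns for the 4 night arrays, the 4 reference arrays and the 4 arrays not in the fit. Colours end at 1.5 on either side, and values beyond are drawn at the end of the scale; the rows run from the largest rise, ReepB, at the top.

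Of the 24 genes that rose, 15 stood above their 8/24 h mean at ZT12 and 20 at CT12, and 13 and 15 stood above their 16/20 h mean at ZT4 and CT4. The digestive and male scores separated the same 2 groups of arrays as the rises and falls. With either score added to the fit as a covariate no probe set passed the adjusted threshold. At an unadjusted limma p under 0.05 there were 702 and 740 of 13966, against 1875 in the main fit. Chance alone would give a share of about 0.05 of all probe sets at that threshold. Because the scores and the groups separate the same arrays, body transcripts and clock time cannot be told apart in these results. With the muscle score as a covariate 43 probe sets passed, 19 of them higher, and with the RNA integrity measure 109, of which 51 were higher. Of the 25 called body list genes, 29 other falls and 24 rises, 11, 6 and 2 passed with the muscle score. With the RNA integrity measure 23, 21 and 21 of them passed.

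Among 17 core clock genes none passed the test, against 0.719% of all genes. At an unadjusted p under 0.05, 4 were higher and 2 lower, against 7.84% and 6.57% of all genes. timeless (tim) differed most. It read 5.05 at ZT8, 5.29 at ZT24, 4.83 at CT8 and 5.49 at CT24, and 7.70 at ZT16, 6.49 at ZT20, 6.35 at CT16 and 5.79 at CT20. The groups did not overlap, with ZT16 far above the rest and CT20 only just above CT24. The difference was 1.42 ± 0.30, or 2.67-fold (95% interval 0.74 to 2.10 in log2), with an adjusted p of 0.082. It was 1.92 on the LD day and 0.91 on the DD day. A second probe set of tim differed by 0.97 (adjusted p = 0.108) and the remaining one by -0.02.

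The other members of the loop gave smaller differences. per read 5.66, 5.52, 5.596 and 5.61 at ZT8, ZT24, CT8 and CT24 and 6.11, 5.89, 5.72 and 5.72 at ZT16, ZT20, CT16 and CT20. Its groups did not overlap, and the difference of 0.26 had an adjusted p of 0.2. vri, a repressor of Clk, read 6.46, 5.46, 6.58 and 5.75 and then 7.54, 5.997, 6.32 and 5.85 in the same order. Its groups overlapped (0.37, adjusted p = 0.724), with high values at 8 h as well as at ZT16, and the sign turned on the DD day alone (-0.08) and without ZT16 (-0.03). Clk read 3.56, 3.64, 4.17 and 3.55 and then 3.04, 3.85, 3.11 and 3.51, and also overlapped (-0.35, adjusted p = 0.485).

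cry, the cryptochrome gene, read 8.46, 8.08, 8.17 and 8.17 at ZT8, ZT24, CT8 and CT24 and 7.85, 7.41, 7.96 and 7.81 at ZT16, ZT20, CT16 and CT20. All night arrays were lower, with a difference of -0.46 ± 0.13 (adjusted p = 0.147). Usp8, a deubiquitinase that acts on CLK, read 5.54, 5.09, 5.57 and 4.97 and then 7.53, 6.51, 6.61 and 5.6 in the same order. It differed by 1.27 (adjusted p = 0.111), with ZT16 the highest and CT20 the lowest night array, the same order of extremes as in tim. slmb, the F-box protein gene for PER and TIM turnover, differed by 0.34 (adjusted p = 0.0916) without overlap. The chromatin genes kis (-0.20, adjusted p = 0.158) and nej (-0.12, adjusted p = 0.398) were lower without overlap. A second probe set of kis differed the other way, by 0.36, a further one by -0.07, and the mean of the kis probe sets by 0.03. The second probe set of nej differed by -0.03, with overlap. The remaining 8 genes, cyc, jet, Pdfr, Pdp1, cwo, Pdf, dco and tws, differed by -0.09 to 0.10, with adjusted p from 0.544 to 0.886.

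**Figure D4:**
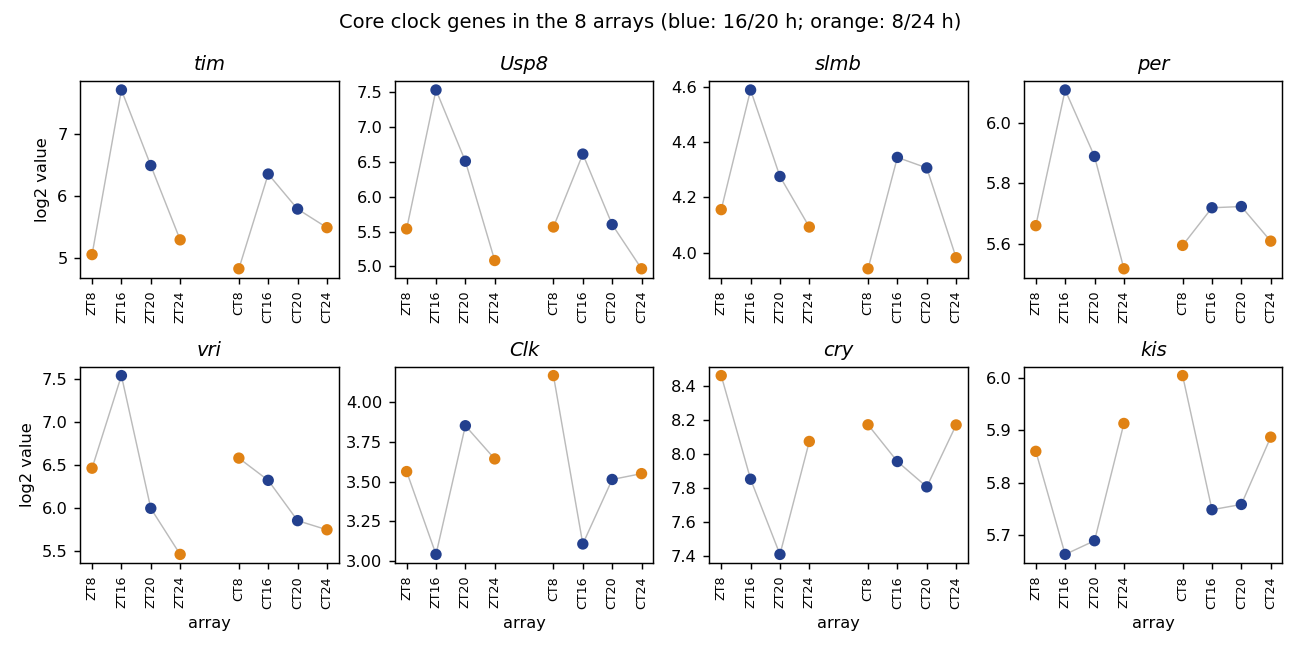
Log2 levels of 8 core clock genes on the 8 arrays of the fit, in order of collection, with a separate y axis for each gene; lines join the arrays of 1 day. Blue points (16/20 h) lie above orange points (8/24 h) for tim, slmb and per and below them for cry and kis, and overlap them for vri and Clk.

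Among 32 genes that earlier studies reported as clock outputs, 2 fell, e and CG9649, and none rose, against 0.498% lower and 0.221% higher of all genes. e encodes the enzyme that joins beta-alanine to dopamine and histamine, in glia and in the cuticle. It read 6.23, 6.17, 6.94 and 6.86 at ZT8, ZT24, CT8 and CT24 and 5.91, 5.90, 6.28 and 6.11 at ZT16, ZT20, CT16 and CT20. The groups overlapped across days but not within a day, with a difference of -0.50 ± 0.09 (adjusted p = 0.0484), and 2 of the 8 fits without 1 array passed. CG9649 fell by 0.38 (adjusted p = 0.0391), while its second probe set differed by -0.13 (adjusted p = 0.406). CG10553 had the largest difference of the list. It read 4.63, 5.34, 6.11 and 5.86 and then 6.84, 7.22, 6.80 and 6.66 in the same order, without overlap (1.39 ± 0.26, adjusted p = 0.0538). The ecdysone-inactivating P450 gene Cyp18a1 differed by 0.67 (adjusted p = 0.0538).

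None of 26 phototransduction genes passed, against 0.719% of all genes, and their median was 0.01. At that share a list of this size would often hold no call, here and in the lists that follow. rdgC, the phosphatase that resets rhodopsin, read 3.94, 4.73, 4.78 and 4.15 at ZT8, ZT24, CT8 and CT24 and 5.73, 5.36, 5.65 and 5.12 at ZT16, ZT20, CT16 and CT20. The groups did not overlap, and the difference of 1.07 ± 0.21 (2.10-fold) had an adjusted p of 0.0592. ninaB, the enzyme that cleaves carotenoids to make the visual chromophore, read 5.75, 5.83, 6.06 and 5.95 and then 6.40, 6.05, 6.63 and 6.44, overlapping by a small margin at ZT20 (0.48, adjusted p = 0.0529). laza and rdhB, which act in phosphatidic acid and chromophore turnover, differed by -0.23 and 0.36 (adjusted p = 0.162 and 0.185). Of the 8 genes for photoreceptor transmitter handling only e passed, as lower (12.5%, against 0.498% of all genes), and their median was -0.16. Hdc, which makes histamine, the transmitter of photoreceptors, differed by -0.28 (adjusted p = 0.0538), the monoamine transporter gene Vmat by -0.24 and ine by 0.19. A second probe set of Vmat differed by 0.001.

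No neuropeptide gene of 30 passed, with a median of -0.02. Ilp2, an insulin-like peptide gene of brain neurosecretory cells, read 6.597 at ZT8, 7.33 at ZT24, 6.84 at CT8 and 6.55 at CT24. It was nearly constant at night, at 7.61, 7.63, 7.58 and 7.62 at ZT16, ZT20, CT16 and CT20. The difference of 0.78 ± 0.14 was without overlap and had an adjusted p of 0.0534. Nplp2 differed by 0.54 (adjusted p = 0.116), ITP by 0.29 and CCHa1 by -0.20. None of 37 neuronal genes passed (median -0.04), where the synaptic vesicle genes Csp and nSyb differed by 0.38 and -0.21, the active zone gene brp by -0.17 and the dopa decarboxylase gene Ddc by 0.23. Further probe sets of brp differed by -0.02 and 0.02. None of 13 glial genes passed (median 0.09). There the astrocyte gene alrm differed by 0.61 (adjusted p = 0.106), the blood-brain barrier transporter gene Mdr65 by 0.66, nrv2 by 0.32 and bnb by 0.18.

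None of 91 olfactory genes passed (median -0.02). The odorant-binding protein genes of smallest p were Obp56a (0.83, adjusted p = 0.0839), Obp56d (0.56, adjusted p = 0.109), Obp18a (0.73, adjusted p = 0.158) and Obp99a (0.93, adjusted p = 0.189). Of 14 head fat body genes none passed (median 0.09), although fit and Cyp4d21, sex-biased genes of that tissue, differed by 1.33 and 1.09 (adjusted p = 0.158 and 0.211). sxe2 differed by -0.30 and the yolk protein gene Yp2 by 0.14.

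Detoxification was the largest list, with 150 genes, of which Cyp28d1 rose and Cyp4g1 fell. That is 1 in each direction, against 0.221% and 0.498% of all genes, and the median was 0.01. Cyp12a4 had the next smallest p (0.86, adjusted p = 0.0573). At an unadjusted p under 0.05, 25 detoxification genes were higher and 15 lower, against 7.84% and 6.57% of all genes. List counts were also taken without CT8, the array whose removal gave the most calls (513 probe sets, 386 of them higher). Without CT24 only 54 probe sets passed, 7 of them higher, and list counts are not given for the other fits that left out 1 array. Without CT8 the counts of several lists were larger, when 3.07% of all genes passed as higher and 0.968% as lower. Higher were then 15 of the 150 detoxification genes, 3 of 26 phototransduction genes (11.5%), 3 of 13 glial genes (23.1%), 2 of 16 antimicrobial genes (12.5%) and 4 of 33 endoplasmic reticulum genes (12.1%). Lower were 21 of 54 digestive genes (38.9%), 11 of 47 male genes (23.4%), 2 of 8 transmitter handling genes and 3 of 36 ribosomal protein genes (8.33%). Reported outputs had 2 higher and 3 lower of 32, respiration 1 and 2 of 63, muscle 2 lower of 26, and the olfactory and neuropeptide lists 2 higher each. Core clock, metabolism and proteasome had 1 higher each. The ovary, neuronal, head fat body, heat shock and cuticle lists had none.

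No gene passed in the lists of heat shock (8), cuticle (74), carbohydrate and lipid metabolism (31), ribosomal proteins (36), proteasome (26) or mitochondrial respiration (63). Their medians lay between -0.08 and 0.00. Among metabolic genes the hexokinase gene Hex-C differed by 0.34, the aldolase gene Ald1 by -0.45, the desaturase gene Desat1 by 0.50 and the trehalase gene Treh by 0.54. The ribosomal protein genes RpL29 and RpL36A differed by 0.81 each (adjusted p = 0.116), and the proteasome gene Prosbeta2 by 0.67 (adjusted p = 0.142). Of the 63 respiration genes 47 lay below 0, against 58.7% of all genes. COX5A differed by -0.30 (adjusted p = 0.0572), COX8 by -0.28, ND-MWFE by 0.81 (adjusted p = 0.091) and ATPsynbeta by 0.58.

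**Figure D5:**
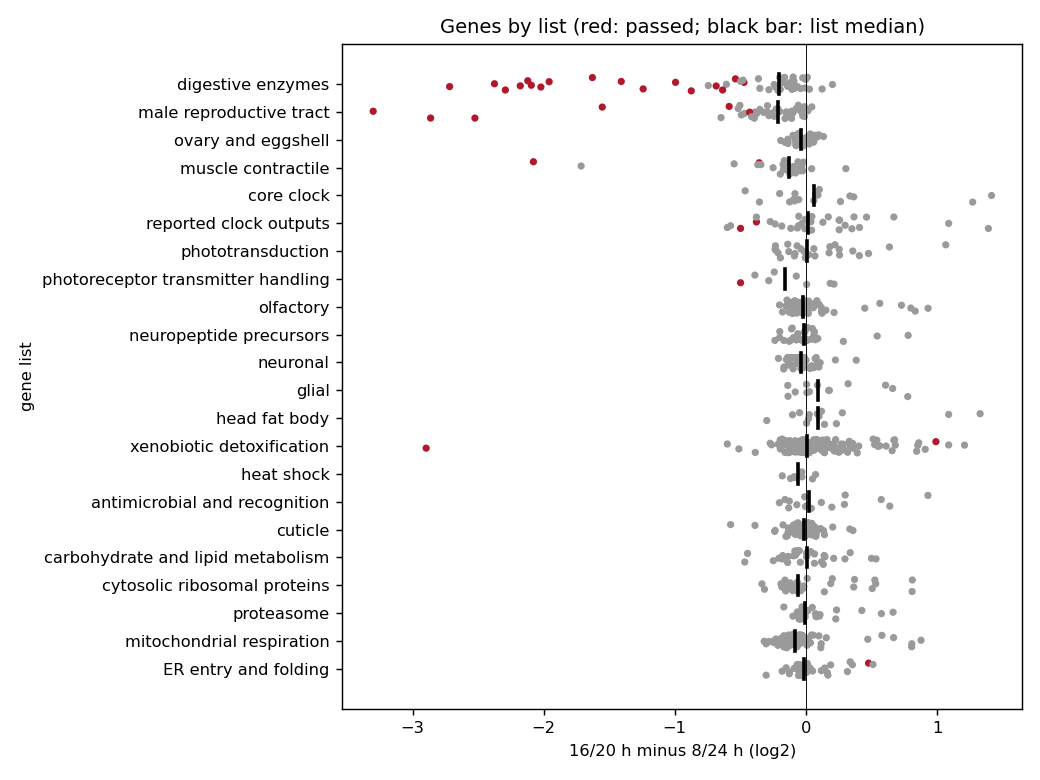
Each point is 1 gene of the named list (rows), placed by its 16/20 h minus 8/24 h difference in log2 (x axis) and jittered vertically; red points passed an adjusted p of 0.05 and black bars are list medians. The digestive and male lists have long tails to the left. Most head and housekeeping lists have medians near 0, from -0.08 for mitochondrial respiration to 0.09 for head fat body. The exception is the list of 8 photoreceptor transmitter handling genes, with a median of -0.16.

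The LD and DD days were compared to ask whether the night difference is the same with and without a light cycle. Across the 13966 probe sets the LD difference and the DD difference had the same sign in 56.4%, with a correlation of 0.578. Probe sets are not independent replicates, and each day's difference rests on 4 arrays. Outside the body lists the values were 57% and 0.505 over 10690 genes. No probe set passed the test of the day-by-group term in limma, and 883 had an unadjusted p under 0.05. The smallest p belonged to fln, whose DD minus LD term was -2.22 ± 0.29 (adjusted p = 0.676). The next were emc, a regulator of helix-loop-helix factors, and VhaAC45, a proton pump accessory subunit, with DD minus LD terms of -0.90 and -0.82. CG10621, CG9427 and CG9686 had terms of 0.88, 0.78 and 0.70, and all 6 had adjusted p of 0.676 to 0.698. The count of the term was 2 without ZT16, 2 without CT24 and 1 without ZT24.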

How the data were processed

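The authors' deposited values are log2 expression levels, 1 per probe set and array; the submitters' processing notes name RMA. Its version, and which arrays it normalised together, are not given in the sources used. RMA forces a common distribution, so a shift shared by most transcripts would not show. About 25 µg of RNA was labelled per sample, per the labels' protocols. The number of arrays limits the precision.

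From these values a linear model with day and group was fitted with limma 3.58.1 in R 4.3.3 (lmFit, eBayes, 5 residual degrees of freedom), with Benjamini-Hochberg adjustment over 13966 probe sets, 44 controls left out. A day-by-group model tested the days. The fits were tested on simulated data. Of 14010 probe sets 12443 had 1 gene, 327 several and 1196 none in the platform annotation, and 12394 matched RefSeq. A gene was represented by its probe set of highest mean. Probe sets without 1 gene were tested but not named.

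Named are the 12 rises and 12 falls of smallest p outside the body lists, the 8 of smallest p in each body list, each core clock gene, the 4 of smallest p in each other list, and the 6 of smallest p of the day-by-group term. Members and lists were chosen with earlier results of these data known. The list of endoplasmic reticulum genes was added after values were seen, and 2 wrong matches (Acp65Aa, Spn42Dd) were dropped from the male list after the match was seen. Further probe sets of named genes, the digestive genes of small difference and the male genes djl, janB, EbpIII, Mst84Dd and Mst84Db were also picked after seeing values. The 28 alternatives are given in the closing section.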

Additional observations from a re-analysis of the deposited data

Results flagged for a closer look

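In groups of 4 arrays, 15 of 312 examined held 1 array far from the other 3, about the 1 in 20 that chance gives. Digestive and male genes were among them in the 8/24 h group: Ebp at ZT8 was 6.23 against 7.22 at the nearest array, and betaTry (10.05), Jon99Fii (9.66) and alphaTry (9.34) were high at CT24. CG12057 was also high at CT24 (7.86), and CG7565 (3.60) and the proteasome gene Rpn5 (6.83) were low there. At CT8, Clk (4.17) and nAChRbeta2 (4.41) were high and Hsp68 (4.42) was low. In the 16/20 h group, CG31872 (2.71) and Acp26Aa (1.95) were low and alphaSnap (5.25) and Ddc (6.50) high at ZT16, and CCHa1 (3.23) was low at ZT20. The Acp26Aa value was the lowest of the whole ZT16 array.

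The 4 and 12 h arrays, which were in no comparison, held body list scores above the highest 8/24 h array. The digestive score was 0.76 at ZT12, 0.37 at CT4 and 0.71 at CT12, against a highest 8/24 h value of 0.30. The male score was 0.52 at CT4 and 1.05 at CT12 (against 0.18), the ovary score 0.19 at ZT12 (against 0.03) and the muscle score 0.61 at CT12 (against 0.48).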

How the results depend on the processing

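With the settings of the report, 92 probe sets passed. Counts moved beyond 1.5 times in several alternatives: 61 without the day covariate, 29 and 18 for the LD and DD days alone, 27 and 10 for 16 h and 20 h alone, 43 with the muscle score as a covariate, 0 with the digestive score, 0 with the male score, 0 with the mean of the 4 body scores (chosen after seeing the data; 339 at an unadjusted p under 0.05), and 5 with all 12 arrays. At an unadjusted limma p under 0.05 the main fit held 1875 probe sets. Leaving out 1 array gave 27 to 513 at the adjusted threshold, and 0 to 2 for the day-by-group term. Counts stayed within 1.5 times against 8 h alone (71) or 24 h alone (132), after median centring (89) or quantile normalisation (106), with a mean of at least 5 (79), and with the RNA integrity covariate (109). A similar count did not mean the same genes. Of the 25 body list genes, 29 other falls and 24 rises, 18, 11 and 6 passed against 8 h alone. Against 24 h alone 17, 17 and 14 of them passed. Higher calls were 31.5% of the main count, 43.7% against 8 h alone, 59.8% against 24 h alone, 46.8% with the integrity covariate and 44.2% with the muscle score. They were 37.9% on the LD day alone, 23% without the day covariate and 18.5% for 16 h alone. On the DD day alone and for 20 h alone they were 0%, so no rise passed there. With 1 array left out the share ran from 7.14% to 75.2%. The 25 body list genes, 29 other falls and 24 rises kept their signs in the alternatives that had no digestive, male or mean body score as a covariate, and with 1 array left out 14 to 25, 5 to 29 and 2 to 24 of them passed. Of these 25, 29 and 24 genes, 18, 20 and 19 kept their sign with the digestive score, 25, 24 and 22 with the male score, and 18, 25 and 21 with the mean body score. Of the genes named in the text, values turned with the digestive score for CG18628 (0.15), CG16826 (0.85), CG12057 (0.24), CG3860 (-0.092), LysE (0.23), Anp (0.15), BomBc2 (-0.024), Alg11 (-0.088), LysB (0.20), Acp63F (0.10) and LysD (0.58). With the male score named genes turned were Anp (0.072) and Alg11 (-0.003). With the mean body score they were Jon99Fii (0.068), Acp95EF (0.14), CG16826 (0.39), Anp (0.18), Cbp53E (-0.11), BomBc2 (-0.30), Alg11 (-0.094), Acp63F (0.19), Act88F (0.18) and LysD (0.13). None of these passed, and the cause was not tested. Each score is a mean over its own list, so list members such as LysE, LysB and LysD were adjusted in part for their own values. The digestive and male scores also separate the same arrays as the groups. These fits therefore cannot show whether a difference is independent of the scores. Of 4335 values of 156 named genes under alternatives, 717 lost the threshold and 67 gained it. In 177, genes that passed in neither setting changed sign, most of them with a digestive, male or mean body score in the fit; with the digestive score rdgC was -0.12, Ilp2 -0.16 and Cyp12a4 -0.57. No paired analysis was possible because the labels give no replicate numbers; day is a covariate instead. The called genes Jon99Fi, CG18284, CG31872, Acp36DE, CG17472 and TpnC4 had 16/20 h means under 3, where signal over background was not measured.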
